A study of Mus musculus with 5 samples.

Results

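The mitochondrial carriers of the SLC25 family were examined in the hearts of mice on 2 diets, all of them given iron. The members were the protein-coding genes with an Slc25a symbol and a number, together with Ucp2 and Ucp3, which belong to the same family under older names. The rule found 49 members among the 49315 genes of the deposited count tables. Messenger RNA had been measured by poly-A RNA sequencing in 5 libraries from whole mouse heart. The HFHS-Fe group (3 libraries) had been fed a diet high in fat and sucrose (HFHS), and the chow-Fe group (2 libraries) standard chow. Both diets had lasted 18 weeks, and both groups then received iron dextran once by vein, an injectable iron held in a dextran shell. The hearts were flushed with saline and taken 48 hours later. The labels give no strain, sex or age, and they call the cell type mixed. All 5 libraries had iron, so the comparison is between diets after iron, and no effect of iron itself was measured. The labels do not say that the libraries came from separate mice, so the p-values speak only for the spread among these 5 libraries, which may be technical.

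SLC25 carriers are the proteins that move metabolites across the inner mitochondrial membrane, which is otherwise closed to charged molecules. Most work as exchangers: ADP for ATP, carnitine for acylcarnitine, aspartate for glutamate. The heart makes nearly all of its ATP in mitochondria, and its inner membranes are packed with the ADP/ATP carrier and the phosphate carrier. Other members bring in iron, amino acids, nucleotides, glutathione and the vitamin-derived cofactors of mitochondrial enzymes, and a small branch, the uncoupling proteins, lowers the proton gradient or carries small acids.

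The libraries held 14362766 to 17774735 counts each, and 19713 to 20278 genes had at least 1 count. The members took 0.579%, 0.582% and 0.628% of the counts in HFHS libraries 1, 2 and 3, and 0.704% and 0.737% in chow libraries 1 and 2. Summed markers of cardiomyocytes, the beating cells of the heart, lay between 66042 and 71702 CPM of the library total in all 5 libraries, but the list split: 4 of 10 rose (Ttn, Myh6, Ryr2, Actn2) and 4 fell (Tnni3, Mb, Myl2, Tnnt2). With the length and GC offsets described below, 5 rose (Myh6, Ryr2, Actn2, Actc1, Pln) and 3 fell (Tnni3, Myl2, Tnnt2). Ttn and Mb did not pass there, at log2 fold changes of 0.10 and -0.15. Of 7 skeletal muscle genes, the myosins Myh1, Myh2 and Myh4 were at 0 or 1 count, Tnnt3 had 4 to 14 and Mylpf 5 to 28 counts, and of the 4 tested only Ckm, which the heart also makes, passed, with a 1.23-fold fall (edgeR adjusted p = 0.00281). Of 7 fat markers Cidea had 360 to 409 counts and did not pass (it rose with the length and GC offsets described below), and the others had at most 4 counts, Plin1 with 3, 3 and 4 in HFHS and 0 and 0 in chow libraries. Markers of the other cells of blood and heart were lower in HFHS hearts, on the same scale. Red blood cell markers summed to 252 to 527 CPM in HFHS and 1494 to 1711 in chow libraries, and 8 of 8 tested markers fell. Macrophage markers summed to 196 to 229 against 490 to 571 CPM (11 of 11 fell), and fibroblast markers to 884 to 949 against 1410 to 1521 CPM (9 of 9 fell). Endothelial markers summed to 1506 to 1529 against 2417 to 2740 CPM (7 of 9 fell). With the length and GC offsets, 8 of 8 red blood cell, 10 of 11 macrophage, 7 of 9 fibroblast and 8 of 9 endothelial markers fell. Of all genes tested 18.7% fell without offsets and 15.4% with them. None of these 4 lists had a tested gene that rose, and the part of these cells in the carriers' values was not tested. In whole hearts, fewer cells of a type and less RNA per cell cannot be told apart.

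Of the 49 members 42 passed the filter on low counts and were tested. In edgeR's quasi-likelihood test, with p-values adjusted over all 14221 genes tested and a threshold of 0.05, 10 members rose in HFHS hearts, 6 fell and 26 did not pass. Those that rose were Slc25a42, Slc25a20, Slc25a34, Slc25a12, Slc25a36, Slc25a13, Slc25a23, Slc25a40, Slc25a16 and Slc25a32. Those that fell were Slc25a4, Slc25a45, Ucp2, Slc25a5, Slc25a24 and Slc25a17. The share of tested members that passed was 38.1%, the same as the 38.1% of all genes tested. By direction, 23.8% of members rose beside 19.4% of all genes, and 14.3% fell beside 18.7%. These shares of all genes also stand beside the counts by substrate class below, which are small and were not tested as sets. The median log2 fold change (HFHS minus chow) was 0.11 over the 42 members and -0.01 over all genes tested. The difference between diets was small for most members: 2 of the 16 that passed, Slc25a42 and Slc25a45, differed by at least 1.5-fold, a size reached by 45.5% of the genes that passed over the whole table (17.3% of all genes tested).

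The HFHS and chow libraries did not overlap in 22 of the 42 tested members (52.4%), 14 higher and 8 lower in HFHS. Over all genes tested the share without overlap was 58.5%, with 29.2% higher and 29.4% lower. All 16 members that passed were among the 22. The split into 10 up and 6 down depended on the scaling: with total counts and no scaling factors, 8 members rose and 9 fell, and over all genes the higher share of the calls was 37.4% in place of 50.9%.

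**Figure D1:**
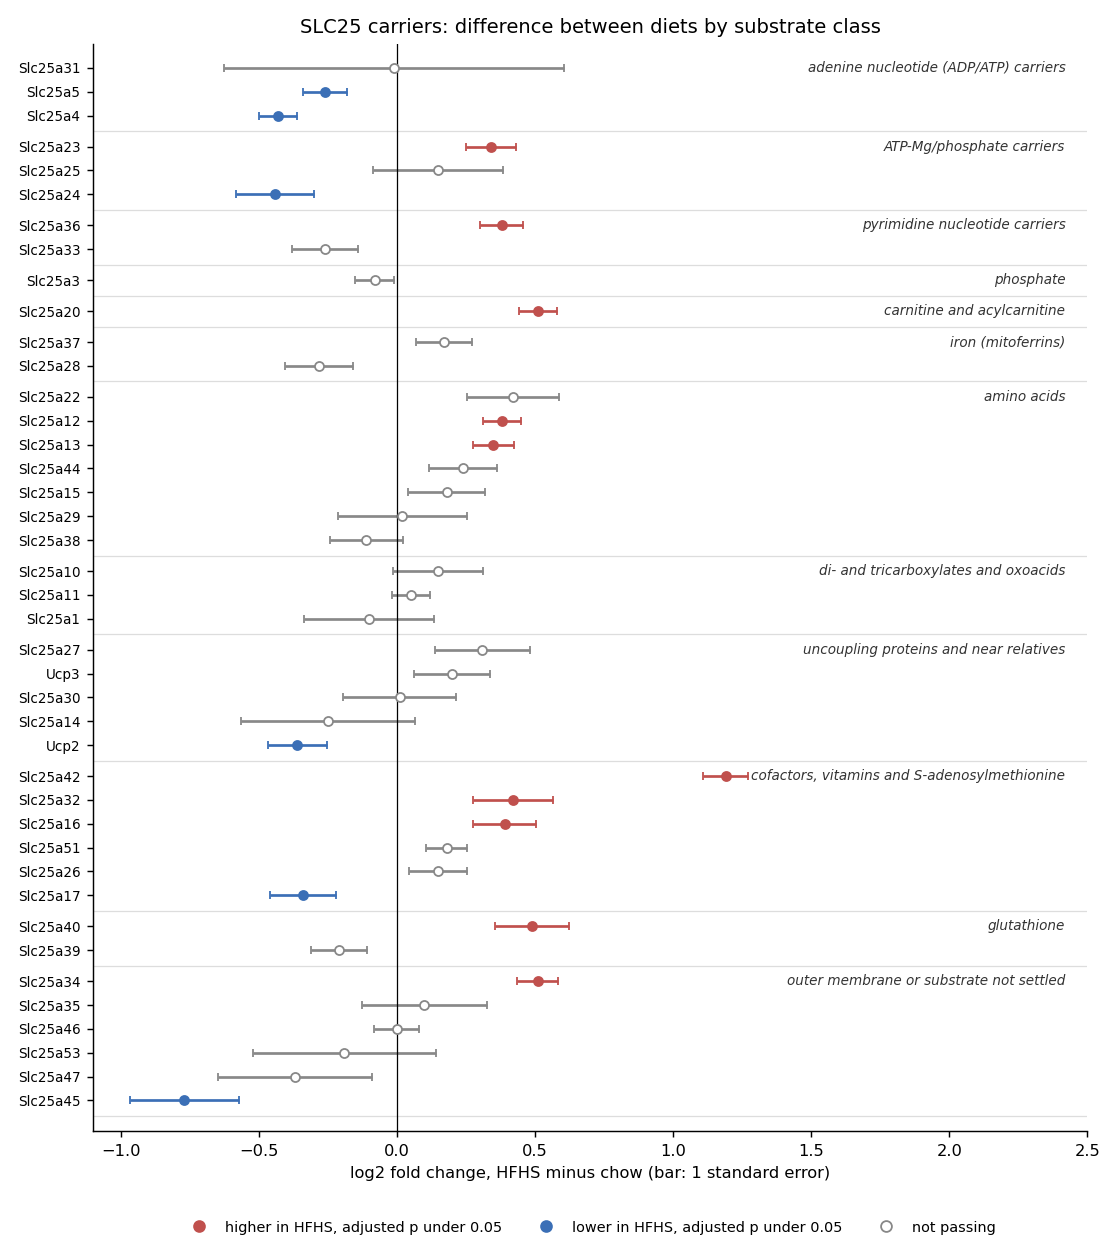
Fitted log2 fold change (x axis, HFHS minus chow, 3 against 2 libraries) of 41 of the 42 tested members, grouped by the substrate each carries. Points are edgeR estimates and bars 1 standard error; 10 members lie to the right with an adjusted p under 0.05 (red), 6 to the left (blue), and Slc25a42 stands farthest from 0 at 1.19.

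Fold changes in these libraries moved with the length of a gene's exons. Across the 14221 genes tested, Spearman's rho between the log2 fold change and exon length was 0.43, a description across genes that share 5 libraries. The members followed the same order, with a median exon length of 5069 bases for those that rose, 2502 for those that fell, and 3516 for all 42. To take this out, the fit was repeated with offsets per library that remove a smooth trend on exon length and GC content, after which rho was 0.03. With these offsets 7 members rose and 3 fell (23.8% of members, beside 30.8% of all genes, 15.4% in each direction). With offsets for exon length alone 9 members rose and 3 fell, beside 30% of all genes passing in either direction. Of the first calls, 6 that rose and 3 that fell still passed with both offsets, and Slc25a11 was added to those that rose. The calls that were lost were those of Slc25a12, Slc25a36, Slc25a23 and Slc25a40 among members that rose, and of Slc25a5, Slc25a24 and Slc25a17 among those that fell. Only 6 members kept the same call in the 16 other settings tried: Slc25a42, Slc25a20, Slc25a34 and Slc25a13, which rose, and Slc25a4 and Slc25a45, which fell.

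**Figure D2:**
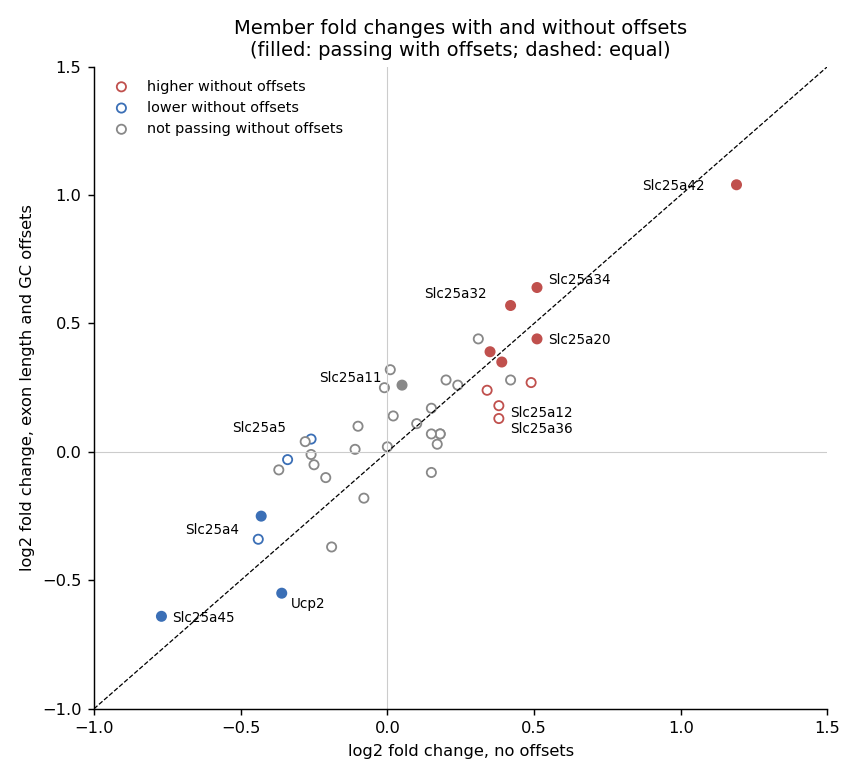
Each point is 1 of 41 tested members, with its log2 fold change (HFHS minus chow) without offsets on the x axis and with offsets for exon length and GC content on the y axis. Colour gives the call without offsets and a filled point passes with them; Slc25a42 stays near 1 on both axes, Slc25a5 moves from -0.26 to 0.05, and Slc25a11 moves from 0.05 to 0.26.

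The promoter sequences of 4 members are shown: the 3 that rose with the smallest p (Slc25a42, Slc25a20 and Slc25a34) and Slc25a4, the most abundant member, which fell. Each runs 5′ to 3′ on the gene's own strand from 250 bases before to 50 after the RefSeq start (GRCm38.p6). Capitals mark matches to the ETS motif CCGGAAG and the SP1 motif GGGCGG or its reverse complement. The Slc25a42 window is chr8:70212232-70212531 on the minus strand, that of Slc25a20 chr9:108661886-108662185 on the plus strand, that of Slc25a34 chr4:141623785-141624084 on the minus strand, and that of Slc25a4 chr8:46211013-46211312 on the minus strand.
Slc25a42: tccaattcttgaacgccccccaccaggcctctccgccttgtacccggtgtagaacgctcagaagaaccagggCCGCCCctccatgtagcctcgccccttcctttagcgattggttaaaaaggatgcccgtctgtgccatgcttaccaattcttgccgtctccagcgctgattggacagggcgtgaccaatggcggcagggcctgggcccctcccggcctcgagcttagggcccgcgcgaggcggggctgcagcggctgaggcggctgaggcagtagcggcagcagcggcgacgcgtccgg
Slc25a20: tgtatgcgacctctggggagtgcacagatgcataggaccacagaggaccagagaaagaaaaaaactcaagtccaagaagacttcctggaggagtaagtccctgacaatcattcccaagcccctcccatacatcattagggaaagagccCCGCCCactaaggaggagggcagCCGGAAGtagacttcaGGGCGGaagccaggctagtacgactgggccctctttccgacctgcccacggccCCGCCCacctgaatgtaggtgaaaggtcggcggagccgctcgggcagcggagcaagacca
Slc25a34: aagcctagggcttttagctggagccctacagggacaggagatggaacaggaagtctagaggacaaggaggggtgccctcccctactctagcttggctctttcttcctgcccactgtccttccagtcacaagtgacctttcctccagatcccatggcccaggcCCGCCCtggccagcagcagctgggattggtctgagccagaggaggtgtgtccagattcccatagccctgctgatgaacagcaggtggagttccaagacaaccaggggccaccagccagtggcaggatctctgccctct
Slc25a4: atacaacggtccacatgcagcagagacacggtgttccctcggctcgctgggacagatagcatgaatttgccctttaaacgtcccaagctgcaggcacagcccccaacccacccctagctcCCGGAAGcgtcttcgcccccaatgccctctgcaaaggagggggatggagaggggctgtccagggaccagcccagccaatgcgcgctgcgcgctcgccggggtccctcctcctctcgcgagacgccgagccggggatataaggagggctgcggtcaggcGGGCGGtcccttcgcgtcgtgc

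The Slc25a20 window held 1 ETS and 3 SP1 matches, the Slc25a4 window 1 of each, and the windows of Slc25a42 and Slc25a34 held 1 SP1 match each. No match overlapped another in these windows. RefSeq windows were matched by symbol for 38 of the 49 members and searched on both strands. The SP1 motif was present in 31 member windows (81.6%), beside 35.9% of all 27025 windows of the same length. No filter on gene type or on counts in heart was applied to the latter. Whether the higher share is particular to the carriers was not tested. Among members that rose it was in 7 of 9 windows and among those that fell in 6 of 6, so it was present on both sides of the comparison. The ETS motif was in 7 member windows (18.4%, beside 9.12% of all), those of Slc25a3, Slc25a4, Slc25a17, Slc25a20, Slc25a25, Slc25a38 and Slc25a54. The oestrogen-related receptor motif TNAAGGTCA was in 0 member windows and 1.26% of all, the NRF1 motif GCGCATGCG in 0 and 1.81%, and the TATA motif TATAAA in 1 (Slc25a18) and 14.2%. A match is a run of letters and not a bound site, and a missing match says only that these letters are not in the window.

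The ADP/ATP carriers, which hand newly made ATP to the cytosol in exchange for ADP, held 2 members that fell and 1 that did not pass; with offsets for length and GC only Slc25a4 fell. Slc25a4 (ENSMUSG00000031633, chr8:46206797-46211284, minus strand), the heart and muscle form, had 2698, 2763 and 3010 CPM in HFHS libraries 1, 2 and 3, and 3736 and 3868 CPM in chow libraries 1 and 2. CPM here and below uses library sizes adjusted by the TMM method, unless given as CPM of the library total. All HFHS libraries lay below both chow libraries. Slc25a4 fell 1.35-fold, from 3802 ± 93.3 CPM (SD, n = 2) to 2824 ± 164 CPM (SD, n = 3), with a log2 fold change of -0.43 (SE 0.067, edgeR adjusted p = 0.000189). With offsets for length and GC it was -0.25 (edgeR adjusted p = 0.00793), and over all alternatives the adjusted p ran from 1.02e-11 to 0.0124.

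Slc25a5, the ADP/ATP carrier of most other tissues, had 163.1, 164.5 and 187.3 CPM in HFHS libraries and 198.4 and 211.4 CPM in chow libraries. The groups did not overlap, but the HFHS library 3 value lay close to that of chow library 1. Slc25a5 fell 1.19-fold (log2 fold change -0.26, SE 0.0791, edgeR adjusted p = 0.0203). This call was lost without HFHS library 1 (edgeR adjusted p = 0.100), without HFHS library 2 (edgeR adjusted p = 0.102) and without chow library 2 (edgeR adjusted p = 0.0870), and with the offsets the log2 fold change was 0.05 (edgeR adjusted p = 0.649, range over alternatives 0.00164 to 0.649). Slc25a5 has an exon length of 1646 bases. Slc25a31, known as the testis form, had 18, 3 and 6 counts in HFHS and 13 and 9 counts in chow libraries, near the limit of what this depth can show.

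The ATP-Mg/phosphate carriers exchange ATP with magnesium for phosphate and so set the size of the adenine nucleotide pool inside mitochondria. Of the 3 tested, 1 rose and 1 fell. Slc25a23 rose 1.27-fold, from 31.06 ± 2.35 to 39.41 ± 1.72 CPM (SD, n = 2 and 3, edgeR adjusted p = 0.00856), and the call was lost without chow library 1 (edgeR adjusted p = 0.0775, range over alternatives 0.00434 to 0.0775). Slc25a24 fell 1.35-fold, from 11.99 ± 1.72 to 8.864 ± 0.685 CPM (SD, n = 2 and 3, edgeR adjusted p = 0.0261). The Slc25a24 call was lost without HFHS library 1 (edgeR adjusted p = 0.0662), without HFHS library 3 (edgeR adjusted p = 0.0798) and without chow library 1 (edgeR adjusted p = 0.244, range over alternatives 0.00924 to 0.244). With offsets for length and GC neither passed, at log2 fold changes of 0.24 for Slc25a23 (0.34 without them) and -0.34 for Slc25a24 (-0.44 without them), and with offsets for length alone Slc25a23 passed. Slc25a25 had 5.621, 7.537 and 11.62 CPM in HFHS against 7.904 and 6.888 CPM in chow libraries, so the HFHS libraries lay on both sides of the chow libraries.

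Of the pyrimidine nucleotide carriers, which supply the building blocks of mitochondrial DNA and RNA, Slc25a36 rose and Slc25a33 did not pass. Slc25a36 had 62.83, 62.52 and 60.28 CPM in HFHS and 48.18 and 47.10 CPM in chow libraries, a 1.30-fold rise (log2 fold change 0.38, edgeR adjusted p = 0.00163). With 9594 bases of exon it is the longest of the members that passed, and with the offsets its log2 fold change was 0.13 (edgeR adjusted p = 0.213, range over alternatives 0.000633 to 0.279). Slc25a33 had 14.17 ± 0.689 CPM in HFHS and 17.02 ± 2.25 CPM in chow (SD, n = 3 and 2), with no overlap of the groups and an edgeR adjusted p of 0.0957. It passed without chow library 1 (edgeR adjusted p = 0.0418) and with total counts and no scaling factors, and its log2 fold change with the offsets was -0.01 (edgeR adjusted p = 0.954, range over alternatives 0.0297 to 0.985).

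The phosphate carrier Slc25a3, which brings in the phosphate for ATP synthesis, was the second most abundant member and did not pass. It had 1290, 1258 and 1330 CPM in HFHS libraries and 1284 and 1447 CPM in chow libraries. The groups overlapped, and the log2 fold change was -0.08 (SE 0.0704, edgeR adjusted p = 0.406). Slc25a4, which works beside it in ATP supply, differed between diets by -0.43 on the same scale. With offsets for length and GC these values lay closer together. They were -0.18 for Slc25a3 (edgeR adjusted p = 0.0656, range over alternatives 0.0626 to 0.944) and -0.25 for Slc25a4 (edgeR adjusted p = 0.00793).

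The carnitine/acylcarnitine carrier Slc25a20 (chr9:108662088-108684641, plus strand), which takes long-chain fatty acids into the matrix as acylcarnitines, was among the clearest differences in the family. It had 232.1, 228.0 and 229.4 CPM in HFHS libraries and 164.4 and 158.1 CPM in chow libraries. The HFHS libraries lay within a few CPM of one another and far above both chow libraries. Slc25a20 rose 1.43-fold (log2 fold change 0.51, SE 0.0691, edgeR adjusted p = 5.73e-05), and with the offsets the log2 fold change was 0.44 (edgeR adjusted p = 0.000233, range over alternatives 8.04e-11 to 0.00112).

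The mitoferrins, which import iron for haem and iron-sulphur cluster synthesis, gave no call in either direction in hearts that had all received iron. Slc25a37 (mitoferrin 1, the form of developing red blood cells) had 29.04, 24.91 and 28.65 CPM in HFHS and 23.60 and 25.44 CPM in chow libraries. HFHS library 2 lay between the chow libraries, and the log2 fold change was 0.17 (SE 0.102, edgeR adjusted p = 0.213). With offsets for length and GC it was 0.03 (edgeR adjusted p = 0.862). Slc25a28 (mitoferrin 2, the form of other tissues) had 12.37, 13.71 and 13.72 CPM in HFHS and 14.56 and 17.61 CPM in chow libraries. The Slc25a28 groups did not overlap, and the log2 fold change was -0.28 (SE 0.123, edgeR adjusted p = 0.0888). It passed without chow library 1 (edgeR adjusted p = 0.0401), with total counts and no scaling factors it also passed, and with the offsets its log2 fold change was 0.04 (edgeR adjusted p = 0.827, range over alternatives 0.0283 to 0.827). Red blood cell markers fell in HFHS hearts, as given above, and their part in the Slc25a37 values was not tested.

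Of the amino acid carriers, 2 of the 7 tested rose (28.6%, beside 19.4% of all genes) and none fell, and with offsets for length and GC 1 of 7 rose (14.3%, beside 15.4%). Both are aspartate/glutamate carriers, which drive the malate-aspartate shuttle that moves reducing power from cytosol to mitochondria. Slc25a12, the form of heart, muscle and brain, had 180.4, 185.5 and 183.2 CPM in HFHS libraries and 138.2 and 143.6 CPM in chow libraries. Slc25a13, the form best known from liver, had 135.8, 140.4 and 131.8 CPM in HFHS libraries and 110.1 and 103.2 CPM in chow libraries. In both, every HFHS library lay above both chow libraries. Slc25a12 rose 1.30-fold (log2 fold change 0.38, SE 0.0697, edgeR adjusted p = 0.000716), and with the offsets the log2 fold change was 0.18 (edgeR adjusted p = 0.0533, range over alternatives 7.58e-06 to 0.0533). Slc25a13 rose 1.28-fold (log2 fold change 0.35, SE 0.0736, edgeR adjusted p = 0.00185), and with the offsets the log2 fold change was 0.39 (edgeR adjusted p = 0.000825, range over alternatives 0.000183 to 0.0168). Their exons measure 7342 and 3798 bases.

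The glycine carrier Slc25a38, which feeds haem synthesis, had 14.11, 10.98 and 13.72 CPM in HFHS and 13.21 and 14.83 CPM in chow libraries, with overlapping groups (log2 fold change -0.11, edgeR adjusted p = 0.544). The glutamate carrier Slc25a22 had 33.23, 30.58 and 35.34 CPM in HFHS libraries, against 18.08 in chow library 1 and 31.33 in chow library 2. The chow libraries thus differed from each other more than the HFHS libraries did. Slc25a22 did not pass (log2 fold change 0.42, edgeR adjusted p = 0.0601). With limma-voom it passed (limma-voom adjusted p = 0.039). In edgeR it also passed with no count filter (edgeR adjusted p = 0.000943) and with the replicate number as a block (edgeR adjusted p = 0.00936). The value of Slc25a22 also turned on the chow library left out. Its log2 fold change was 0.87 without chow library 2 (edgeR adjusted p = 6.08e-05) and 0.08 without chow library 1 (edgeR adjusted p = 0.662, range over alternatives 6.08e-05 to 0.662). The carriers of branched-chain amino acids (Slc25a44), ornithine (Slc25a15) and basic amino acids (Slc25a29) did not pass, with log2 fold changes of 0.24, 0.18 and 0.02.

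None of the 3 tested carriers of di- and tricarboxylates and oxoacids passed. The oxoglutarate carrier Slc25a11, the partner of the aspartate/glutamate carriers in the malate-aspartate shuttle, had 373.5, 370.2 and 397.1 CPM in HFHS libraries and 372.9 and 361.2 CPM in chow libraries. The groups overlapped (log2 fold change 0.05, SE 0.0686, edgeR adjusted p = 0.597), and the log2 fold change was -0.04 with total counts and no scaling factors. Slc25a11 passed with the offsets, at a log2 fold change of 0.26 (edgeR adjusted p = 0.00692, range over alternatives 0.00617 to 0.916), and has 2120 bases of exon. Of these, 8.915% lie over exons of Rnf167 on the opposite strand, and the strand setting of the counting is not given. The citrate carrier Slc25a1, which exports citrate for lipid synthesis, had 4.559, 2.871 and 4.595 CPM in HFHS and 4.439 and 4.166 CPM in chow libraries (log2 fold change -0.10, edgeR adjusted p = 0.781). The dicarboxylate carrier Slc25a10 had a log2 fold change of 0.15 (edgeR adjusted p = 0.518).

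Of the uncoupling proteins and their near relatives 1 of 5 passed. Ucp2, a carrier of many tissues and of macrophages in particular, had 25.17, 23.97 and 30.61 CPM in HFHS libraries and 34.11 and 34.00 CPM in chow libraries. Every HFHS library lay below both chow libraries, and library 3 was the nearest to them. Ucp2 fell 1.28-fold (log2 fold change -0.36, SE 0.108, edgeR adjusted p = 0.0177), and with the offsets the log2 fold change was -0.55 (edgeR adjusted p = 0.00113). The Ucp2 call was lost without HFHS library 1 (edgeR adjusted p = 0.0762), without HFHS library 2 (edgeR adjusted p = 0.0896) and without chow library 1 (edgeR adjusted p = 0.0552, range over alternatives 0.000557 to 0.0896). All 11 macrophage markers fell as well, and 10 of 11 did with offsets for length and GC. Their sums were 490 and 571 in chow and 196, 202 and 229 in HFHS libraries (CPM of the library total). The part of these markers in the Ucp2 value was not tested.

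Ucp3, the form of heart and skeletal muscle, had 58.27, 51.61 and 44.53 CPM in HFHS libraries and 36.49 and 52.94 CPM in chow libraries. The groups overlapped, since chow library 2 lay above HFHS libraries 2 and 3. The log2 fold change was 0.20 (SE 0.139, edgeR adjusted p = 0.269), and it was 0.50 without chow library 2 (edgeR adjusted p = 0.00648) and -0.04 without chow library 1 (range of adjusted p over alternatives 0.00648 to 0.846). Among the near relatives, log2 fold changes were 0.31 for Slc25a27, 0.01 for Slc25a30 and -0.25 for Slc25a14, and none passed.

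The carriers of cofactors held the largest difference of the family. Of their 7 members 3 rose and 1 fell (42.9% and 14.3%, beside 19.4% and 18.7% of all genes). With offsets for length and GC 3 rose and none fell (42.9% rose, beside 15.4% of all genes). A class this small is described, not tested. Slc25a42 (chr8:70184340-70212305, minus strand), which imports coenzyme A, the acyl carrier of fatty acid oxidation and the citric acid cycle, had 69.76, 72.07 and 74.67 CPM in HFHS libraries. In chow libraries it had 31.34 and 31.88 CPM. The lowest HFHS library lay far above the highest chow library. Slc25a42 rose 2.28-fold, from 31.61 ± 0.381 CPM (SD, n = 2) to 72.17 ± 2.46 CPM (SD, n = 3), with a log2 fold change of 1.19 (SE 0.0818, edgeR adjusted p = 1.53e-07). With the offsets the log2 fold change was 1.04 (edgeR adjusted p = 6.67e-07, range over alternatives 6e-32 to 1.72e-05).

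Slc25a16, a carrier linked to coenzyme A by work in yeast, rose 1.31-fold, from 23.29 ± 4.11 to 30.56 ± 1.83 CPM (SD, n = 2 and 3, edgeR adjusted p = 0.0149). This call was lost without HFHS library 1 (edgeR adjusted p = 0.0587), without HFHS library 2 (edgeR adjusted p = 0.0568) and without chow library 2 (edgeR adjusted p = 0.180, range over alternatives 0.00162 to 0.180). Slc25a32, the carrier of folate or of flavin cofactors, rose 1.34-fold, from 7.016 ± 0.260 to 9.383 ± 0.383 CPM (SD, n = 2 and 3, edgeR adjusted p = 0.0341). The Slc25a32 call was lost when any 1 of the 5 libraries was left out, with edgeR adjusted p between 0.0670 and 0.124, and passed with the offsets (log2 fold change 0.57, edgeR adjusted p = 0.00747, range over alternatives 0.00747 to 0.126). Slc25a17, the carrier of peroxisomes rather than mitochondria, fell 1.27-fold, from 16.55 ± 0.784 to 13.06 ± 1.31 CPM (SD, n = 2 and 3, edgeR adjusted p = 0.0351). With the offsets the Slc25a17 log2 fold change was -0.03 (edgeR adjusted p = 0.883, range over alternatives 0.0101 to 0.883), and its call was lost without HFHS library 1 or 3 or either chow library. The carriers of NAD (Slc25a51) and S-adenosylmethionine (Slc25a26) did not pass, with log2 fold changes of 0.18 and 0.15.

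**Figure D3:**
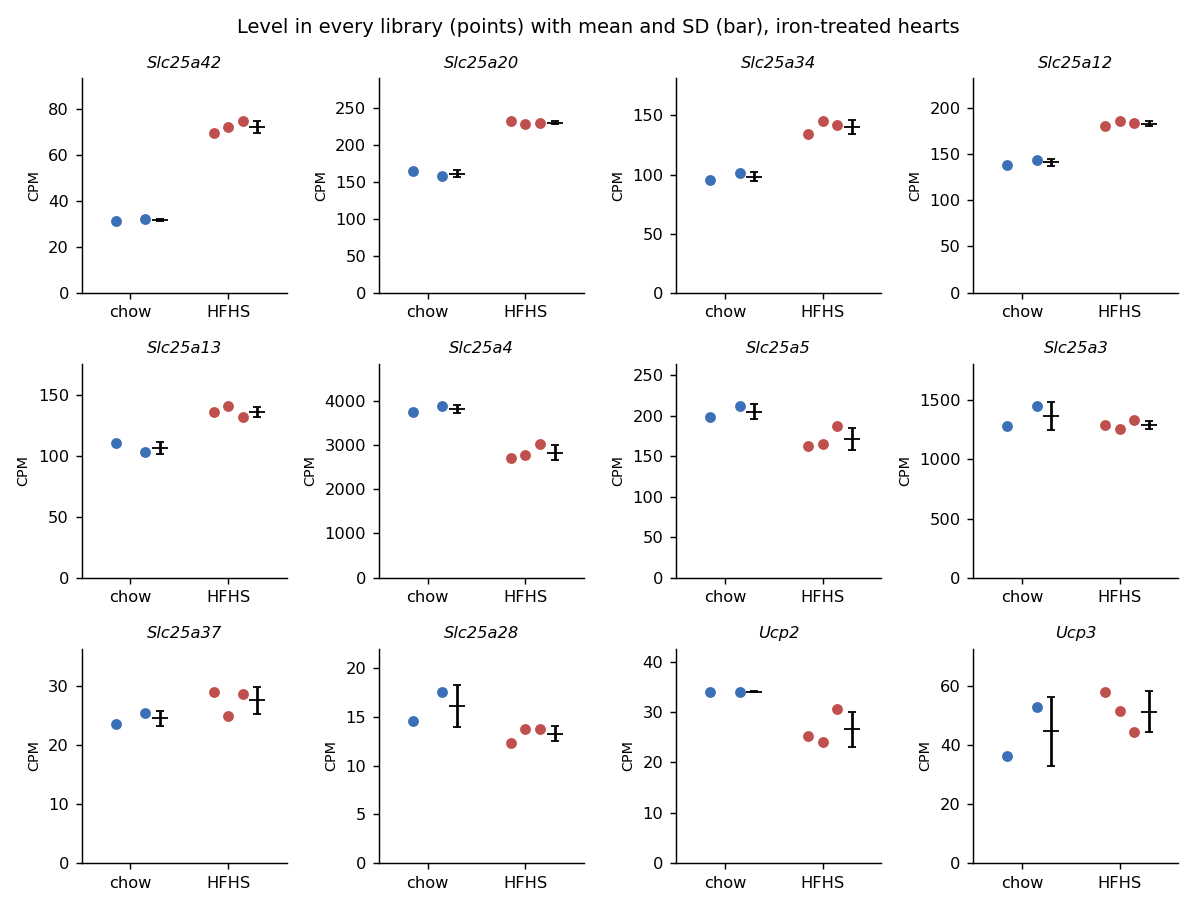
Level of 12 members in each library, in CPM with TMM-adjusted library sizes (y axis, from 0), for chow (2 libraries, blue) and HFHS (3 libraries, red); the black bar is the mean with the SD. Slc25a42, Slc25a20, Slc25a34, Slc25a12 and Slc25a13 lie higher in every HFHS library, Slc25a4, Slc25a5, Slc25a28 and Ucp2 lower, and Slc25a3, Slc25a37 and Ucp3 overlap.

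Of the glutathione carriers, which bring the main cellular antioxidant into mitochondria, Slc25a40 rose and Slc25a39 did not pass. Slc25a40 had 12.68, 12.63 and 15.00 CPM in HFHS and 10.02 and 9.11 CPM in chow libraries, a 1.40-fold rise (log2 fold change 0.49, edgeR adjusted p = 0.0101). The call was lost without chow library 2 (edgeR adjusted p = 0.0608) and with the offsets (log2 fold change 0.27, edgeR adjusted p = 0.129, range over alternatives 0.00573 to 0.153). The more abundant Slc25a39 had 54.27, 52.04 and 67.44 CPM in HFHS libraries and 65.88 and 67.71 CPM in chow libraries. HFHS library 3 lay among the chow libraries and the other HFHS libraries below them. Slc25a39 had a log2 fold change of -0.21 (SE 0.102, edgeR adjusted p = 0.129), and without HFHS library 3 it passed (edgeR adjusted p = 0.00892), as it did with total counts and no scaling factors (range of adjusted p over alternatives 0.00406 to 0.61).

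Members of the outer membrane or with no settled substrate included 1 that rose and 1 that fell, of 6 tested. Slc25a34 (chr4:141618824-141623821, minus strand), a carrier whose substrate is not established, had 134.1, 145.1 and 141.6 CPM in HFHS libraries and 95.33 and 101.0 CPM in chow libraries. Every HFHS library lay above both chow libraries. Slc25a34 rose 1.43-fold (log2 fold change 0.51, SE 0.0748, edgeR adjusted p = 0.000105), and with the offsets the log2 fold change was 0.64 (edgeR adjusted p = 1.79e-05, range over alternatives 2.04e-08 to 0.0018).

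Slc25a45 (chr19:5877808-5885766, plus strand) had 65, 44 and 51 counts in HFHS libraries and 110 and 112 counts in chow libraries. These are 4.059, 3.158 and 3.446 against 5.955 and 6.221 CPM, and the groups did not overlap. Slc25a45 fell 1.71-fold (log2 fold change -0.77, SE 0.197, edgeR adjusted p = 0.00688), and with the offsets the log2 fold change was -0.64 (edgeR adjusted p = 0.0237, range over alternatives 0.00174 to 0.0334). The outer membrane protein Slc25a46, which takes part in mitochondrial fission, had 77.05 ± 5.88 CPM in HFHS (SD, n = 3) and 77.04 ± 0.149 CPM in chow (SD, n = 2). Slc25a35, Slc25a47 and Slc25a53 had log2 fold changes of 0.10, -0.37 and -0.19 at levels of at most 7.095 CPM in any library, and did not pass.

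The members that were not tested had few or no counts. Slc25a18, a second glutamate carrier, had 4, 4 and 7 counts in HFHS and 3 and 9 in chow libraries. Slc25a43 had 6, 2 and 1 against 4 and 1 counts, Slc25a2, a second ornithine carrier, 1, 1 and 0 against 4 and 1, and the oxodicarboxylate carrier Slc25a21 1, 0 and 1 against 0 and 0. Slc25a41, Slc25a48 and Slc25a54 had 0 counts in every library, a result that still permits 0.169 to 0.209 CPM of the library total (what 3 counts are worth, counting error only).

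Levels between members were compared per kb of exon (CPM per kb). Slc25a4 led with a mean of 1200 CPM per kb in HFHS and 1616 in chow libraries. Slc25a3 followed with 232.9 and 246.1, Slc25a11 with 179.4 and 173.1, and Slc25a5 with 104.3 and 124.5 CPM per kb. These 4 members made up 82.6%, 83.0% and 83.8% of the family's summed level per kb in HFHS libraries and 87.9% and 88.0% in chow libraries. Slc25a4 alone made up 57.3%, 58.1% and 58.9% in HFHS against 66.0% and 65.7% in chow libraries. Of the family's counts, not divided by exon length, it made up 45.1%, 46.1% and 47.1% in HFHS against 55.2% and 54.5% in chow libraries. The rest of the family, taken as summed CPM without Slc25a4, was 3286, 3232 and 3384 CPM in HFHS and 3034 and 3226 CPM in chow libraries. The lower family total in HFHS hearts (5984, 5995 and 6394 against 6770 and 7095 CPM) thus came with the lower Slc25a4 values. Levels, shares, totals and places in this and the next paragraph were not corrected for the trend on exon length. With offsets for length and GC the log2 fold change was -0.25 in place of -0.43 for Slc25a4. For Slc25a5 it was 0.05 in place of -0.26.

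Next in order stood Slc25a34 (52.53 and 36.77 CPM per kb in HFHS and chow), Slc25a20 (47.45 and 33.29) and Slc25a13 (35.81 and 28.08). Within each group the libraries of these first 7 members did not overlap with those of the next member in the order. Their order was thus the same in both diets, and its steps were wider than the spread between libraries. That spread does not include error in the exon lengths, on which the order rests. Slc25a12 had more CPM than Slc25a13 in every library, but stood below it per kb (7342 against 3798 bases). Slc25a12 was eighth in HFHS and ninth in chow hearts, changing places with Slc25a39. Lower down the levels ran together: of the 41 neighbouring pairs among the 42 tested members, 27 overlapped in HFHS and 21 in chow libraries. Slc25a42 stood at place 13 in HFHS hearts with 12.04 CPM per kb and at place 18 in chow hearts with 5.273 CPM per kb.

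**Figure D4:**
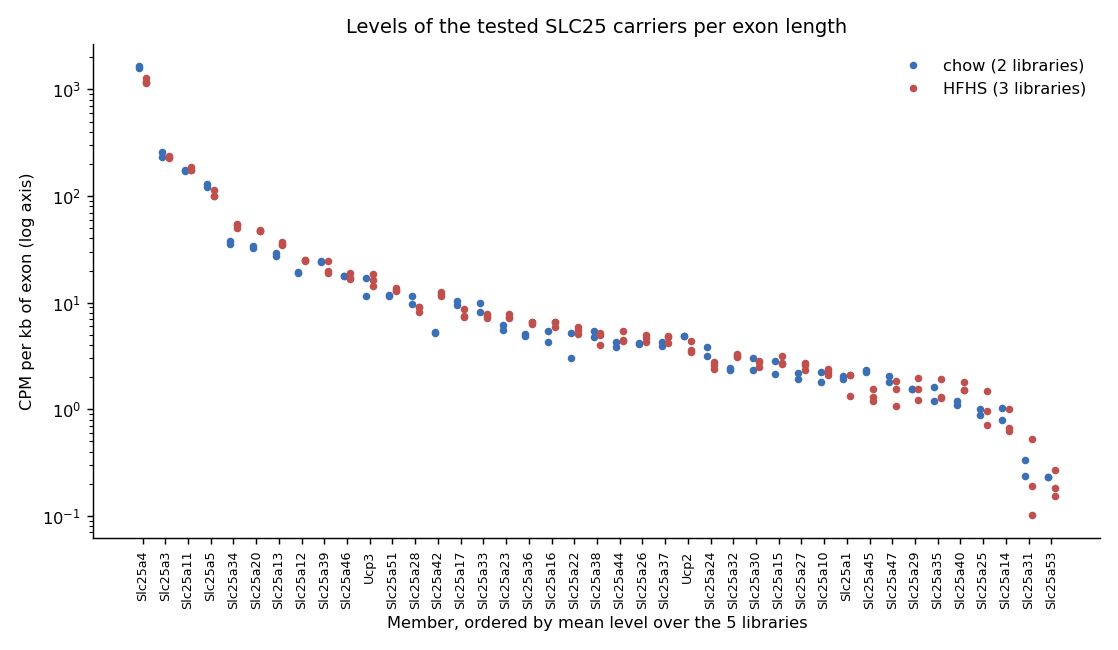
Level of 41 tested members per kb of exon (y axis, CPM per kb, log axis) in the 2 chow (blue) and 3 HFHS (red) libraries, ordered by the mean over all 5 libraries. Slc25a4 stands above all others, the first 4 members are set apart from the rest, and most neighbours further down overlap.

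Ratios between members with a shared substrate or name do not depend on the size factors of the libraries. There were 7 such ratios of counts per kb, each tested over libraries with a two-sided exact permutation test. With 3 against 2 libraries that test cannot give a p below 0.2, so none could pass. Slc25a4 to Slc25a5 was 11.6, 11.8 and 11.2 in HFHS and 13.2 and 12.8 in chow libraries (exact permutation p = 0.2, 0.28 after Benjamini-Hochberg adjustment over the 7 ratios). Slc25a23 to Slc25a24 was 3.02, 2.64 and 3.02 against 1.44 and 1.97, with the same p. Both ratios were apart in every library, in the first case downward and in the second upward in HFHS hearts.

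Slc25a12 to Slc25a13 was 0.687, 0.683 and 0.719 in HFHS and 0.649 and 0.72 in chow libraries, with overlapping groups (exact permutation p = 0.8). That test could not have passed, and with offsets for length and GC the log2 fold changes of the pair were 0.18 and 0.39. Ucp3 to Ucp2 was 5.16, 4.8 and 3.24 against 2.39 and 3.47 and also overlapped (exact permutation p = 0.4, adjusted 0.467). The 3 remaining ratios did not overlap between groups (exact permutation p = 0.2, adjusted 0.28, each). Members of all 7 pairs differ in exon length, given in brackets for these 3, and its part in the ratios was not tested. With offsets for length and GC, the log2 fold changes were 0.04 for Slc25a28 and 0.03 for Slc25a37. They were -0.1 for Slc25a39 and 0.27 for Slc25a40, and 0.13 for Slc25a36 and -0.01 for Slc25a33. Slc25a28 to Slc25a37 (1514 and 6021 bases) was 1.69, 2.19 and 1.9 against 2.45 and 2.75. Slc25a39 to Slc25a40 (2756 and 8386 bases) was 13.0, 12.5 and 13.7 against 20.0 and 22.6. Slc25a36 to Slc25a33 (9594 and 1887 bases) was 0.916, 0.87 and 0.797 against 0.614 and 0.498.

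**Figure D5:**
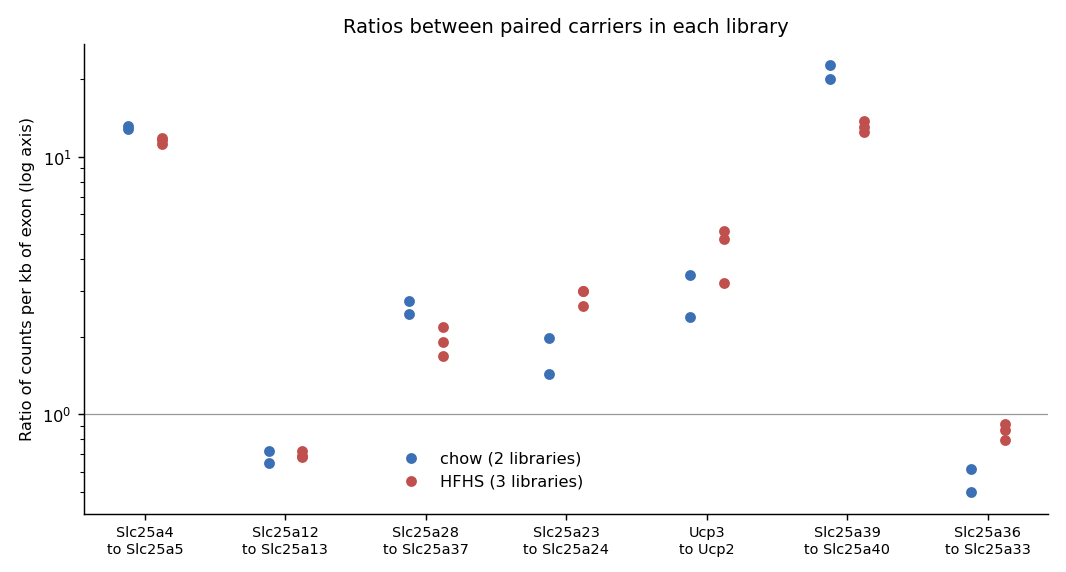
Ratio of counts per kb of exon between 7 pairs of members (y axis, log axis), 1 point per library, for chow (2 libraries, blue) and HFHS (3 libraries, red); the grey line marks a ratio of 1. The pairs Slc25a12 to Slc25a13 and Ucp3 to Ucp2 overlap between diets, and the other 5 do not.

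Genes that work beside the carriers were counted in lists of the same pathways; over all genes tested 19.4% rose and 18.7% fell, and lists this short are described, not tested. Of the 7 genes listed for the carnitine shuttle, the pathway of Slc25a20, 5 rose and none fell. Cpt1b, the muscle form of the enzyme that makes long-chain acylcarnitines, had 140.1, 135.6 and 131.0 CPM in HFHS and 65.51 and 46.88 CPM in chow libraries, a 2.41-fold rise (edgeR adjusted p = 1.6e-06). Crat, which makes acetylcarnitine, rose 1.90-fold (edgeR adjusted p = 2.16e-05) and Cpt1a, the liver form of Cpt1b, rose 1.53-fold (edgeR adjusted p = 0.000104). All 5 also rose with the offsets. Both subunits of the mitochondrial pyruvate carrier, which brings the product of glycolysis into the matrix and is not an SLC25 protein, fell. Mpc2 had 221.1, 209.1 and 238.5 CPM in HFHS and 330.8 and 342.1 CPM in chow libraries, and fell 1.51-fold (edgeR adjusted p = 2.78e-05). Mpc1 fell 1.32-fold (edgeR adjusted p = 0.000442), a call that was lost with the offsets (edgeR adjusted p = 0.0994, range over alternatives 1.82e-06 to 0.0994).

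Of the enzymes of the malate-aspartate and glycerophosphate shuttles 3 of 7 rose and 1 fell. Gpd1, the cytosolic glycerol phosphate dehydrogenase, rose 1.61-fold (edgeR adjusted p = 5.07e-05), and Got2, the mitochondrial aspartate transaminase that works beside Slc25a12 and Slc25a13, rose 1.29-fold (edgeR adjusted p = 0.000757). Gpd1l rose 1.24-fold (edgeR adjusted p = 0.00984), a call lost with offsets for length and GC (log2 fold change 0.21, edgeR adjusted p = 0.0602, range over alternatives 0.00443 to 0.0866). The member that fell, Mdh1, the cytosolic malate dehydrogenase, was chosen for mention after its values were seen; it fell 1.14-fold (edgeR adjusted p = 0.0282), and with the offsets its log2 fold change was -0.02 (edgeR adjusted p = 0.817, range over alternatives 0.00278 to 0.817).

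Among mitochondrial ABC transporters and partners of haem and iron, 5 of 9 rose and 2 fell. Alas1, the first enzyme of haem synthesis outside red blood cells, rose 1.64-fold (edgeR adjusted p = 9.54e-05). Abcb8 rose 1.38-fold (edgeR adjusted p = 0.000442) and Abcb10, a partner of mitoferrin 1 in red blood cells, rose 1.32-fold (edgeR adjusted p = 0.00194). The 2 that fell lost their calls with the offsets, while 5 rose there. Of the 8 genes of calcium uptake and exchange 2 fell, a share near that of all genes. Smdt1, a small subunit of the calcium uniporter, fell 1.54-fold (log2 fold change -0.62, edgeR adjusted p = 4.33e-05). With offsets for length and GC its log2 fold change was -0.23 (edgeR adjusted p = 0.0341, range over alternatives 2.55e-10 to 0.0514), and its exons measure 1077 bases. Mcub, the subunit that damps the uniporter, had 10, 12 and 8 counts in HFHS libraries and 68 and 32 counts in chow libraries, and fell 4.04-fold (edgeR adjusted p = 0.00122). Of 5 sideroflexins, a separate family of inner membrane carriers, Sfxn1, the serine carrier, fell 1.51-fold (edgeR adjusted p = 0.0042) and 4 did not pass.

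None of the 3 outer membrane channels (Vdac1, Vdac2, Vdac3) passed without offsets, with log2 fold changes of 0.15, -0.16 and -0.13; with the offsets 1 rose and 2 fell. Mtch1 and Mtch2, proteins with the carrier fold that sit in the outer membrane and carry other symbols, fell 1.30-fold (edgeR adjusted p = 0.00308) and 1.18-fold (edgeR adjusted p = 0.0155). Ucp1, the uncoupling protein of brown fat, had 2 counts in HFHS library 1 and 0 in the other libraries.

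Exons of 14 members overlap those of another gene, nearly all on the opposite strand. The partners with most counts were Atp6v1e1 (1207 to 1771 counts per library), which covers 1.675% of the exon bases of the untested Slc25a18, Rnf167 (547 to 847) over Slc25a11, and Lrig1 (404 to 516), which covers 2.996% of Slc25a26. Of the members that passed, Slc25a23 and Ucp2 overlap exons on the opposite strand, in 3.173% and 4.364% of their exon bases, with a gene of at most 15 counts in any library. Slc25a35 overlaps Rangrf in 31.303% of its exon bases and Slc25a33 overlaps Gm13068 in 14.891%, with at most 7 counts of either other gene. Near-identical copies (at least 300 bases at 95% identity or more) were found for Slc25a5, Slc25a36, Slc25a37 and Slc25a40. The copies of Slc25a5, the pseudogenes Gm5529 and Gm5560, had 0 to 4 counts per library, so reads counted there were few beside those of Slc25a5. The strand setting and the treatment of reads with more than 1 mapping place, or over exons of more than 1 gene, are not given. Low counts of an overlapping gene or of a copy therefore do not show how many reads were shared or left out.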

How the data were processed

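The authors deposited raw counts per gene in 1 table for each of 5 libraries. The submitters' processing notes list GRCm38 and the tools Trimmomatic 0.36, STAR 2.5.2b and featureCounts (Subread 1.5.2). No source used here gives the strand or multi-mapping settings or the annotation release. Per the file headers, each table gives Ensembl IDs, exon coordinates, exon length and the count. Symbols came from GENCODE M21, which held 49056 of 49315 genes, 91.44% of which agreed in start and end (as did 40 of the 49 members).

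Counts were fitted over the whole table in R 4.3.3 by edgeR 4.0.16 (glmQLFit and glmQLFTest on diet after filterByExpr and TMM, Benjamini-Hochberg over 14221 genes). Log2 fold changes are given as HFHS minus chow, and their standard errors were approximated by the coefficient over the root of the F statistic. Offsets came from smooth trends (mgcv 1.9.3) on exon length and transcript GC content, known for 99.8% of tested genes. Chi-square per degree of freedom was 2.75 to 9.53 within groups and 52.1 to 68.6 between groups, so no libraries agreed within sampling noise. The fit was also run on simulated data, with changes in far fewer genes than passed here or with an added length trend. No result given here rests on those runs.

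The members, classes, marker lists and related lists were chosen with earlier results of these data known. Values in every library were given for members past the threshold with a change of at least 1.5-fold, for the 6 with the highest level per kb, and for a fixed set of 14 members (Slc25a1, Slc25a3, Slc25a4, Slc25a5, Slc25a11, Slc25a12, Slc25a13, Slc25a20, Slc25a28, Slc25a37, Slc25a38, Slc25a39, Ucp2, Ucp3); Slc25a22, Slc25a25, Slc25a36, Slc25a40 and, as counts, Slc25a31 were added after their values were seen. Related genes were those that passed among the 3 smallest p of each list. The alternatives comprised other size factors and count filters, DESeq2 1.42.0, limma-voom (limma 3.58.1), no mitochondrially encoded genes, each library left out, the replicate number as a block, the offsets, and a threshold of 0.01. The values of 1 tested member that did not pass are not reported here; it is included in the counts.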

Additional observations from a re-analysis of the deposited data

How the results depend on the processing

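Over the alternatives tried, 7 to 11 members rose, against 10 reported. The number that fell was 6. It was 9 with total counts and no scaling factors, 4 with DESeq2, 3 with exon length offsets, 3 with exon length and GC offsets, 2 at an adjusted p of 0.01, and 2 to 5 when 1 library was left out (2 without HFHS library 1); a smaller sample or a stricter threshold calls fewer genes by construction, and for the other settings the cause was not tested. Of 669 recomputed fold changes of single members, 567 kept their direction and their side of the threshold, 43 no longer passed, 15 newly passed and 44 changed sign. The only member that passed and changed sign was Slc25a5, at 0.06 with length offsets and 0.05 with length and GC offsets.

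The other sign changes were in members that did not pass, at small log2 fold changes, and their cause was not tested. With length offsets the values were -0.05 (Slc25a25), 0.21 (Slc25a31), 0 (Slc25a33), 0.02 (Slc25a38), 0.12 (Slc25a1), -0.03 (Slc25a46) and 0.06 (Slc25a28). With length and GC offsets they were -0.08 (Slc25a25), 0.25 (Slc25a31), 0.01 (Slc25a38), 0.10 (Slc25a1) and 0.04 (Slc25a28). Upper-quartile size factors gave -0.03 (Slc25a30), -0.02 (Slc25a29) and -0.04 (Slc25a46); total counts gave -0.09 (Slc25a30), -0.04 (Slc25a11), -0.08 (Slc25a29) and -0.09 (Slc25a46). No count filter gave 0 (Slc25a30) and -0.01 (Slc25a46), and limma-voom -0.01 (Slc25a29). Leaving out 1 library gave ranges of -0.17 to 0.38 (Slc25a25), -0.24 to 0.36 (Slc25a31), -0.04 to 0.50 (Ucp3), -0.16 to 0.01 (Slc25a3), -0.02 to 0.40 (Slc25a15), -0.17 to 0.21 (Slc25a30), -0.12 to 0.33 (Slc25a35), 0 to 0.31 (Slc25a10), -0.17 to 0.17 (Slc25a29), -0.20 to 0.09 (Slc25a1), -0.06 to 0.04 (Slc25a46), and -0.05 to 0.10 for the log2 difference of the Slc25a12 to Slc25a13 ratio.

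The titles number the libraries, and whether same-numbered libraries were paired is not known. Deviations of same-numbered libraries from their group means correlated at 0.0348 and 0.0258. The deviations of 2 chow libraries mirror each other, so this check cannot settle whether there was a pairing. With the replicate number as a block, 11 members rose, 5 fell and 5332 genes passed in all, against 5417 without it. The block added Ucp3, Slc25a22 and Slc25a39 and lost Slc25a24, Slc25a32 and Slc25a17, and with it the sign changed for Slc25a25 (-0.18), Slc25a31 (0.08), Slc25a35 (-0.11) and Slc25a29 (-0.18). DESeq2 called 9 members higher.

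With 3 against 2 libraries the exact permutation test could not pass for any single ratio. Members with few counts, such as Slc25a31, have wide standard errors. Diet groups, cell composition and the exon length trend move together in these libraries and cannot be told apart by the design, and hearts without iron were not analysed here.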
